A study of Mus musculus with 2 samples.

Results

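The cells described here are classical monocytes with little or no C1q, found in RM-1 tumours of mice. They were selected on their transcripts: at least 3 UMIs (unique transcript molecules) of Lyz2, at least 2 UMIs of Ly6c2, Ccr2, Chil3 and Vcan together, and at most 1 UMI of C1qa, C1qb and C1qc together. Limits also applied to keratins (at most 3 UMIs of Krt8 and Krt18, genes of the tumour cells), to Ace and Adgre4 (at most 1), to Arg1 (at most 2) and to S100a8 and S100a9 (at most 4). A barcode also had to show 500 genes or more, with mitochondrial transcripts no more than 15% of its UMIs. In total 196 of 20198 barcodes met every limit, 94 in the vehicle library and 102 in the RP-6306 library.

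RM-1 is a mouse prostate cancer line, labelled wild type, that was grafted subcutaneously into C57BL/6 animals. The mice received either vehicle or RP-6306 and their tumours were collected at day 10; RP-6306 is an inhibitor of PKMYT1, a kinase that restrains CDK1 and thereby entry into mitosis. Each arm was 1 library of a droplet method that counts the 3' ends of transcripts, and the labels do not make clear how many mice a library holds. The age and sex of the mice and the dose are not given in the sources used here. With 1 library per arm no test was possible: "higher" and "lower" compare these 2 libraries, and the 95% intervals cover counting error only.

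Classical monocytes are made in the bone marrow and leave it through the chemokine receptor CCR2. They circulate with high surface Ly6C and enter inflamed tissue and tumours, where they can turn into macrophages or into antigen-presenting cells. C1q, the first component of the classical complement pathway, is made by tissue macrophages and is acquired as monocytes mature. Monocytes also sense interferons, whose receptors switch on antiviral genes.

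The libraries held 9686 and 10512 barcodes with 100815022 and 106465655 UMIs, vehicle first here and throughout. The monocytes contributed 321555 and 311000 UMIs, with medians of 3085 and 2599 UMIs per cell. C1q-positive macrophages, set beside them (the same quality, keratin, Lyz2 and S100a8 and S100a9 limits, and at least 5 C1q UMIs), were 232 and 235 cells with medians of 5424 and 5162 UMIs. The libraries shared 34 barcodes, and the monocytes carried 0 of them in the vehicle library and 1 in the RP-6306 library. Levels are the UMIs of a gene in every 1000000 UMIs of its class and library (CPM). A log2 ratio compares RP-6306 with vehicle after adding 1 CPM to each, so that low genes look closer than they are, and ratios with intervals carry no pseudocount.

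Plac8, a lysosomal protein gene of monocytes that took no part in the selection, was found in 74 of 94 and 88 of 102 members. At an equal depth of 2000 UMIs per cell it was seen in 66.7% of 84 vehicle members and 81.9% of 83 RP-6306 members, shallower cells being left out. In macrophages at that depth the shares were 15.2% and 24.4%, and in keratin-positive tumour cells (at least 10 Krt8 and Krt18 UMIs, median depths of 12353 and 12668 UMIs) it was seen in 5 and 7 of 1000 cells drawn from each library. The Plac8 shares of the members thus stood far above those of the tumour cells. Thinning took away a larger part of the UMIs of the deeper tumour cells, and the part of free RNA in these shares was not tested. Of the 4 genes whose sum chose the cells, Ccr2 was detected in 77 and 80 members, Chil3 in 64 and 76, Vcan in 73 and 83, and Ly6c2 in 15 and 31. Most members carried several: 40 vehicle and 47 RP-6306 members had 3 of the 4 genes, and 7 and 15 had every one. Vcan, a matrix proteoglycan gene, was also seen at equal depth in 7.60% and 4.80% of tumour cells, whereas Ccr2 was seen in 1 and 2 of 1000.

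The marker genes lie on separate chromosomes of GRCm38: Ly6c2 at chr15:75108158-75111970, Ccr2 at chr9:124101950-124113557, Chil3 at chr3:106147554-106167564, Vcan at chr13:89655312-89742509 and Plac8 at chr5:100553725-100572245. Each is annotated as protein-coding. The counts read the 3' ends of their transcripts. Ly6c2 has a near-identical neighbour in Ly6c1, so its counts are uncertain.

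Genes of other blood cells were scarce among the members. T and NK cell genes summed to 2 and 5 UMIs over 12 genes, with Cd3e, Cd8a, Nkg7 and Ncr1 at 0. Of 12 dendritic cell markers 8 were at 0 in each library, including Flt3, Cd209a, Clec9a and Ccr7, and the list summed to 33 and 16 UMIs. Of 11 neutrophil markers 5 were at 0 in the vehicle library, among them Cxcr2, Ltf, Camp and Ngp, but Mmp8, neutrophil collagenase, reached 302 and 219 CPM. Nonclassical monocyte markers summed, without the rule's Ace and Adgre4, to 1126 and 1109 CPM in members and 577 and 546 in macrophages, with 0 of the 10 genes at 0. Most of that was Nr4a1, a nuclear receptor and immediate-early gene, at 858 and 778 CPM, with Itgal, an integrin chain, at 121 and 186. Of the 5 listed classical monocyte markers, 4 had chosen the cells, and Ly6c2 among those was seen in only 15 of 94 and 31 of 102 members. Plac8 was the marker outside the rule. The members also carried Mmp8, Nr4a1 and Itgal from other lists.

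Members lay close to some limits of the selection. Of those inside, 9 vehicle and 16 RP-6306 cells had the 1 C1q UMI allowed, and 3 and 8 further cells had 2 C1q UMIs and met every other limit. In all, 113 and 150 cells failed on Lyz2 alone, 71 and 84 on C1q alone, 17 and 15 on the monocyte genes alone, and 13 and 10 on Arg1 alone. The 2 UMIs of monocyte genes needed were just met by 18 and 7 members.

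Classical monocytes made up similar shares of both libraries. They were 0.985% (Clopper-Pearson interval 0.797 to 1.20) of 9540 kept barcodes in the vehicle library and 0.990% (0.808 to 1.20) of 10308 in the RP-6306 library. The difference was 0.00420 percentage points, with an interval from -0.281 to 0.287. Among cells with Lyz2, a gene of monocytes, macrophages and neutrophils, the shares were 24.6% of 382 and 25.6% of 398, a difference of 1.02 points (-5.25 to 7.27). Macrophages were 2.43% and 2.28% of kept barcodes. A difference inside that interval could not be detected at these cell numbers.

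**Figure D1:**
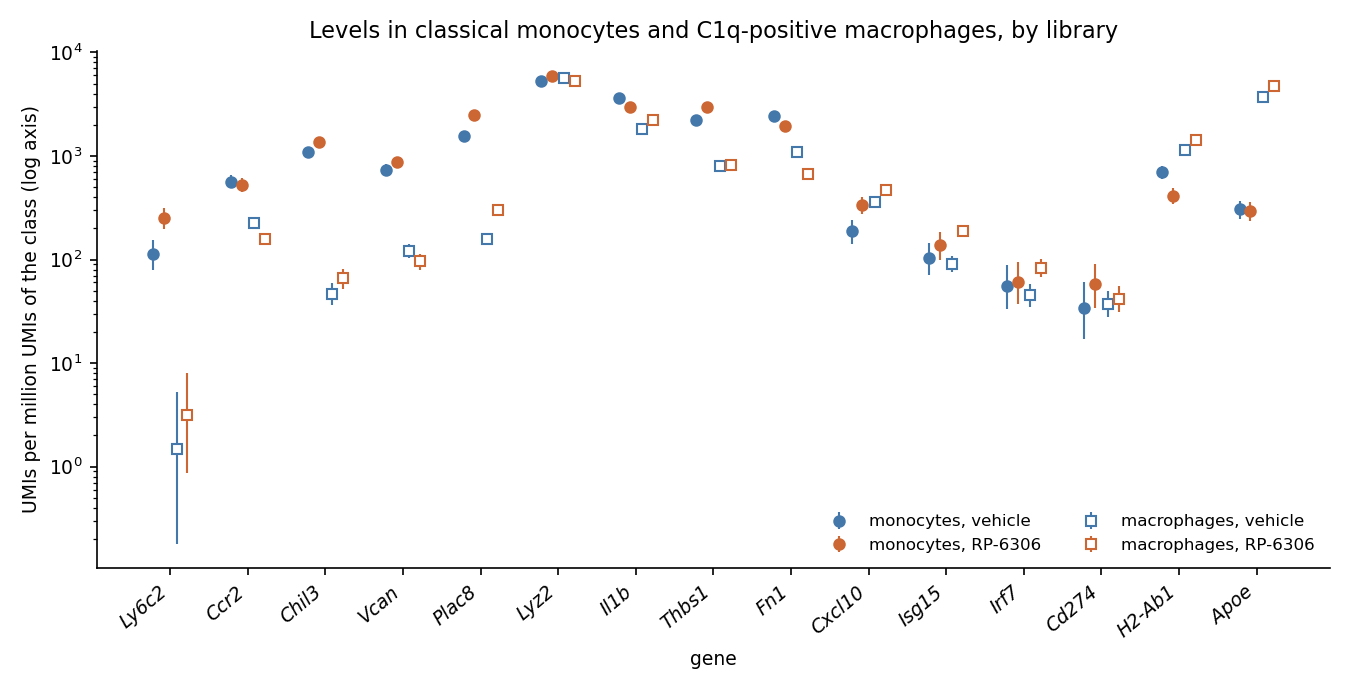
Levels of 15 genes in classical monocytes (filled circles) and C1q-positive macrophages (open squares) of the vehicle (blue) and RP-6306 (orange) libraries, in CPM on a log axis with exact Poisson 95% intervals. Plac8 stood at 1561 and 2511 in monocytes against 157 and 298 in macrophages, and Apoe at 305 and 293 against 3737 and 4683. The selection used Ly6c2, Ccr2, Chil3, Vcan and Lyz2.

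Against macrophages, 77 of 3180 genes (2.42%) stood at least 2-fold higher in monocytes of both libraries and 99 (3.11%) at least 2-fold lower. The cells were chosen by C1q and monocyte genes of this very contrast, and 4 genes in each direction were rule genes, so these counts describe the selection and nothing is read from them. Hp, haptoglobin, was at 134 and 350 CPM in monocytes and at 32.3 and 39.6 in macrophages. Others on the monocyte side were Plac8, Lilra6, an activating receptor of the leukocyte immunoglobulin-like family, Hopx, Cd24a, Rgcc, Mgst1, a glutathione transferase, Mmp8, S100a4, a calcium-binding protein, Slpi, a protease inhibitor, and Napsa, an aspartic protease. Lilra6 stood at 162 and 61.1 CPM in monocytes against 8.80 and 7.13 in macrophages.

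On the macrophage side were genes of settled tissue macrophages. Fcna, ficolin A, Ccl8, a chemokine, Folr2, a folate receptor, Gas6, a ligand of the receptor Axl, Cd72, Itga9 and Fcrls were at 0 UMIs in the monocytes of both libraries. At 0 the monocytes allow up to 9.33 CPM in the vehicle library and 9.65 CPM in the RP-6306 library (3 counts per library). Fcna was therefore at least 22.6-fold and at least 19.2-fold lower than in macrophages, and Fcrls at least 5.50-fold and 6.89-fold lower. Mrc1, the mannose receptor CD206, was at 9.33 and 12.9 CPM in monocytes (3 and 4 UMIs) against 517 and 577, a ratio of 0.0180 (0.00371 to 0.0530) and of 0.0223 (0.00605 to 0.0573). Pf4, a platelet and macrophage chemokine, was at 6.22 and 12.9 CPM against 964 and 961, and Ccl12 at 6.22 and 48.2 against 1673 and 2186. Mmp9 and Mmp13, matrix proteases, were the other named genes. The list counts that follow also describe the selection, and nothing is read from them. Over all 3180 genes, 2.42% were 2-fold higher and 3.11% 2-fold lower in monocytes. Of 27 tissue macrophage genes outside the rule, 0 were 2-fold higher and 19 were 2-fold lower in monocytes. Of 19 classical monocyte genes outside the rule, 16 were 2-fold higher and 1, F13a1, was 2-fold lower: this coagulation factor was at 152 and 180 CPM in monocytes and 428 and 583 in macrophages.

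Lyz2 cells with intermediate C1q held intermediate levels of Plac8, Thbs1 and Apoe, though not of every gene. With the other limits kept and no demand on monocyte genes, cells with 0 to 1, 2 to 9 and 10 or more C1q UMIs numbered 111, 28 and 146 in the vehicle library and 117, 33 and 181 in the RP-6306 library. Plac8 was at 1563, 856 and 151 CPM along these bins in the vehicle library and at 2513, 1346 and 307 in the RP-6306 library. Thbs1, thrombospondin 1, followed the same order, at 2133, 1412 and 609 CPM and at 2875, 1765 and 711. Apoe, apolipoprotein E, ran the other way, at 275, 573 and 4028 CPM and at 428, 1246 and 4804. Fn1 did not fall from the first to the second bin of the vehicle library, at 2241, 2250.2 and 846 CPM. Il1b was highest in the middle bin of the RP-6306 library, at 2990.2, 3539 and 2179 CPM. In the other library each of these followed the order of Plac8. Median depth was also higher in each bin than in the one before, at 2950.0, 3594 and 5812 UMIs and at 2566, 3003 and 5044, and its part was not tested.

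Few genes of the monocytes differed by 2-fold between the libraries. Of 2497 genes with at least 40 UMIs over both and 50 CPM in the higher one, 33 (1.32%) were at least 2-fold higher and 24 (0.961%) at least 2-fold lower in the RP-6306 library. Over 4325 genes with at least 20 UMIs the median log2 ratio was 0.01, with 2180 higher and 2145 lower. At 20 UMIs in each library the interval of a ratio already runs from 0.528 to 2.02. Equal counts at that level thus leave a difference of close to 2-fold open.

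Of the 10 higher genes named here, Pclaf differed most. Pclaf, a PCNA-binding factor of DNA replication, was at 12.4 and 141 CPM (4 and 44 UMIs, log2 ratio 3.41, ratio interval 4.14 to 43.6). Top2a, topoisomerase II, was at 40.4 and 138 CPM, Stmn1, a microtubule regulator, at 87.1 and 273, Nasp, a histone chaperone, at 40.4 and 125, and Hmgb2, a chromatin protein, at 230 and 608. H1f0, a linker histone made outside DNA replication, was at 65.3 and 183 CPM. The others were Hsph1, a heat shock protein, at 59.1 and 193 CPM (151 and 281 in tumour cells), Clec4d, a C-type lectin receptor of myeloid cells, at 31.1 and 96.5, Rnf187, a ubiquitin ligase, at 37.3 and 103, and Sdf4 at 56.0 and 151. Clec4d was seen in 9 and 18 members. A further 4 genes past 2-fold, Marcksl1, Nrg1, H2ac24 and AW112010, had 29.5% to 45.0% of their UMIs in 1 cell and are not described. In tumour cells Pclaf was at 166 and 183 CPM, Top2a at 246 and 203, and Hmgb2 at 536 and 511, whereas Clec4d was at 3.33 and 3.21. Stmn1 was at 285 and 248 CPM there, Nasp at 190 and 190, and H1f0 at 306 and 293. Rnf187 was at 91.0 and 85.6 CPM in tumour cells, and Sdf4 at 99.9 and 97.0. The part of tumour RNA in these differences was not tested. With each cell thinned to 2000 UMIs, the log2 ratio was no longer past 1 for Clec4d, at 0.66 in place of 1.60, or for Hmgb2, at 0.98 in place of 1.40.

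The lower genes had no common list. Matk, a kinase that restrains Src-family kinases, was at 121 and 25.7 CPM (39 and 8 UMIs, log2 ratio -2.19, ratio interval 0.0856 to 0.460) and was seen in 26 and 8 members. St8sia4, a polysialyltransferase, was at 155 and 35.4 CPM and was seen in 33 and 11 members. Mmp12, macrophage elastase, was at 208 and 48.2 CPM. Olfm1 was at 187 and 67.5 CPM, Lilra6 at 162 and 61.1, Nptn, a cell adhesion protein, at 134 and 38.6, Niban1 at 99.5 and 28.9, and Igf1r, the receptor of insulin-like growth factor 1, at 93.3 and 38.6. Hmgcs1, a synthase at the entry of the cholesterol pathway, was at 233 and 103 CPM. The intervals of these 9 ratios lay below 1, but the genes were picked for the size of their ratio. Genes with more than 25% of their UMIs in 1 cell had been left out beforehand. At equal depth the log2 ratio of Olfm1 was -0.73 in place of -1.45, and that of Hmgcs1 -0.61 in place of -1.17. In tumour cells Hmgcs1 was at 310 and 244 CPM, Niban1 at 104 and 100, and Nptn at 79.8 and 70.1. St8sia4 was at 0.281 and 0.349 CPM there. The part of tumour RNA in the lower genes was not tested.

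**Figure D2:**
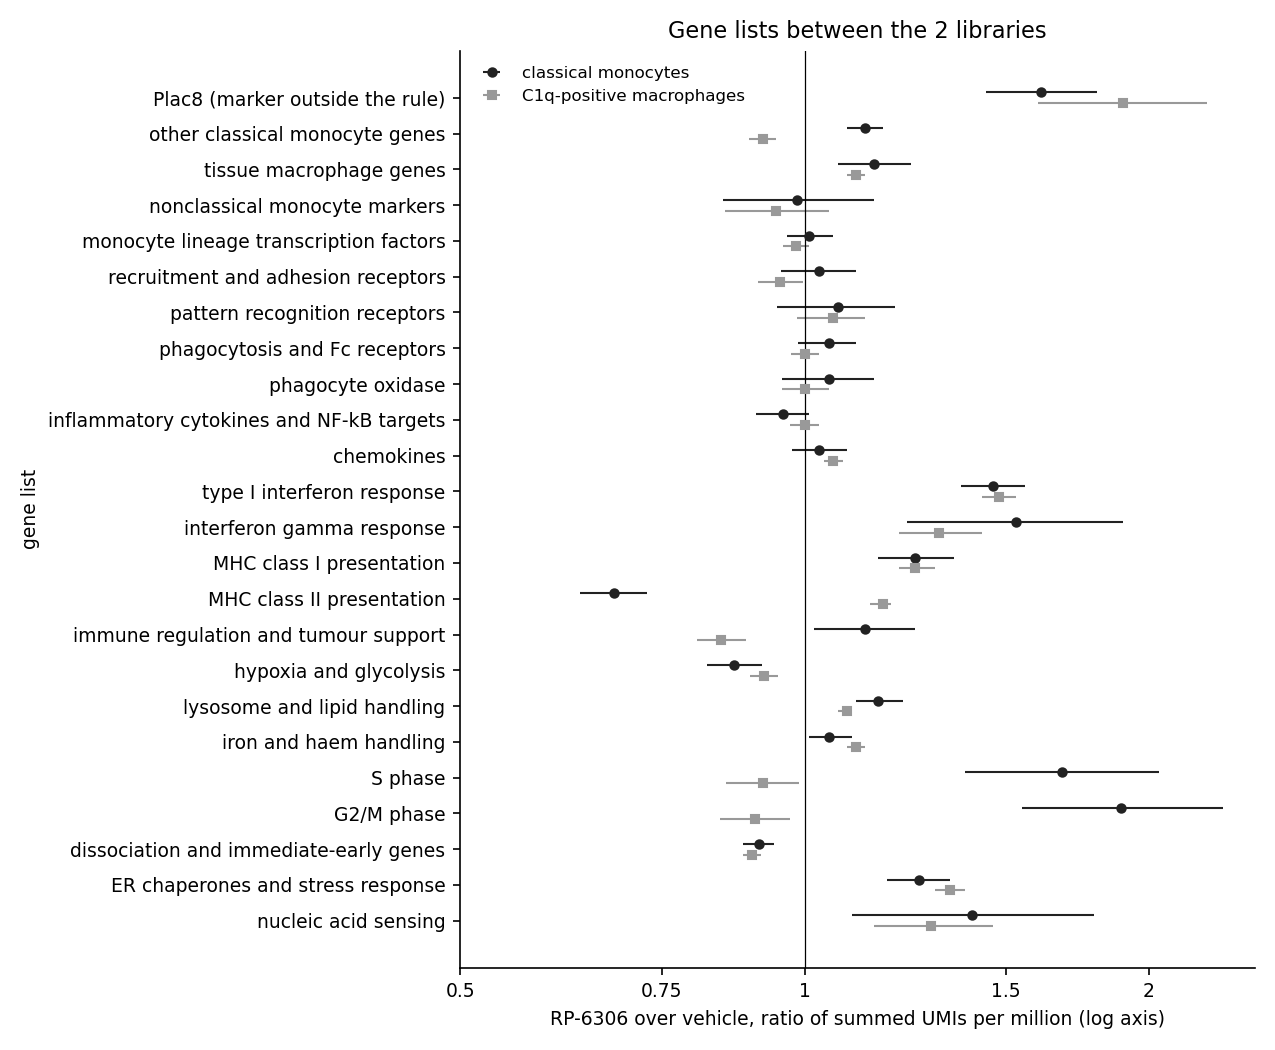
RP-6306 over vehicle ratio of the summed CPM of each gene list (log axis) in classical monocytes (black circles) and C1q-positive macrophages (grey squares), with exact conditional 95% intervals, for lists with at least 4 measured members and for Plac8. The type I interferon lists stood at 1.46 and 1.48. MHC class II stood at 0.681 in monocytes and 1.17 in macrophages, and G2/M genes at 1.89 and 0.905.

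Genes that interferons induce stood higher in monocytes of the RP-6306 library. Of 25 genes of the type I interferon list with at least 20 UMIs, 21 were higher and 4 lower, with a median log2 ratio of 0.54 against 0.01 over all genes. Their list summed to 4842 CPM in the vehicle library and 7068 in the RP-6306 library, a ratio of 1.46 (1.37 to 1.56). In macrophages the ratio was 1.48 (1.43 to 1.53), so the interval of each class contained the value of the other. At equal depth, the median member carried 8 and 13 UMIs of the list.

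Among abundant genes, Ifitm3, a membrane protein that blocks virus entry, was at 1742 and 2203 CPM (ratio interval 1.13 to 1.42). Ifi27l2a was at 470 and 981 CPM (1.71 to 2.56) and was seen in 56 and 85 members, and Ly6e was at 569 and 743 CPM. Ifi27l2a was the 1 gene of the list that passed 2-fold among 14 with enough UMIs. Rarer genes stood further apart: Slfn4 at 12.4 and 57.9 CPM, Rtp4 at 18.7 and 61.1, and Ifit1 at 21.8 and 57.9, although 1 cell held 44.4% of the Ifit1 UMIs in the RP-6306 library. Isg15, a ubiquitin-like protein, was at 103 and 138 CPM (0.836 to 2.19), and Irf7, a factor that amplifies interferon production, was at 56.0 and 61.1 (0.542 to 2.21), so neither could be told apart between the libraries at full depth. In the RP-6306 library 1 cell held 31.6% of the Irf7 UMIs. At equal depth the log2 ratio of Isg15 was 1.32 in place of 0.43. The list's 4 lower genes were Ifitm1, Irf9, Oasl2 and Sp100, each with an interval that included 1.

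Tumour cells also carried some of these genes at a higher level in the RP-6306 library, for example Isg15 at 50.3 and 95.2 CPM in keratin-positive cells. At equal depth, Isg15 was seen in 7.14% and 18.1% of monocytes and in 6.70% and 16.4% of tumour cells, so its shares in monocytes were close to those of the tumour cells. Ifi27l2a was at 3.58 and 7.13 CPM in tumour cells and was seen at equal depth in 47.6% and 69.9% of monocytes against 0.900% and 1.80% of tumour cells. Over the 16 measured members that were under 15 CPM in tumour cells, the monocyte ratio was 1.74 (1.55 to 1.95), a set chosen after the data were seen. The part of tumour RNA in the other members was not tested.

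Interferon-activated factors bind DNA at repeats of GAAA, and several of these genes hold such letters in their promoters. The search was for GAAA followed, after any 2 bases, by a further GAAA, on both strands (on the other strand TTTC, 2 bases, TTTC), in RefSeq windows of GRCm38.p6 from 250 bases before to 50 bases after the start of each gene. A match was found in 8 of 17 measured interferon genes with a window (47.1%) and in 3.99% of 27025 genes. Stretches of 4 promoters are shown 5' to 3' along the gene with the matched letters in capitals (overlapping matches run together), as examples of the letters in genes measured here; they were chosen after the values were seen. A match is a run of letters and not a measured binding site.
Isg15, chr4:156200827-156200926, minus strand: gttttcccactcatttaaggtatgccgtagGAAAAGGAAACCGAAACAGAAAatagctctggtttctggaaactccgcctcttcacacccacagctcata
Ifit1, chr19:34640755-34640854, plus strand: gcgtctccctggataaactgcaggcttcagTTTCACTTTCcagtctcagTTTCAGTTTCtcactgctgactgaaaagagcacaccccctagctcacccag
Bst2, chr8:71537533-71537632, minus strand: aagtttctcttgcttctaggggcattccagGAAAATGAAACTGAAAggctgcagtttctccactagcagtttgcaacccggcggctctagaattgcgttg
Rsad2, chr12:26456503-26456602, minus strand: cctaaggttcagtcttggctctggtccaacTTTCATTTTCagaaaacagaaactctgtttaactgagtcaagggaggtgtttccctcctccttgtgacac

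Ratios of genes with these letters lay far apart, though their intervals overlapped. Bst2, tetherin, which holds budding viruses on the cell, was at 121 and 235 CPM (1.29 to 2.93). Rsad2, viperin, an antiviral enzyme, was at 77.7 and 83.6 CPM (0.597 to 1.94) and was seen in 4 and 10 members. Ms4a4c, with no match in its window, was at 146 and 289 CPM (1.38 to 2.88).

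**Figure D3:**
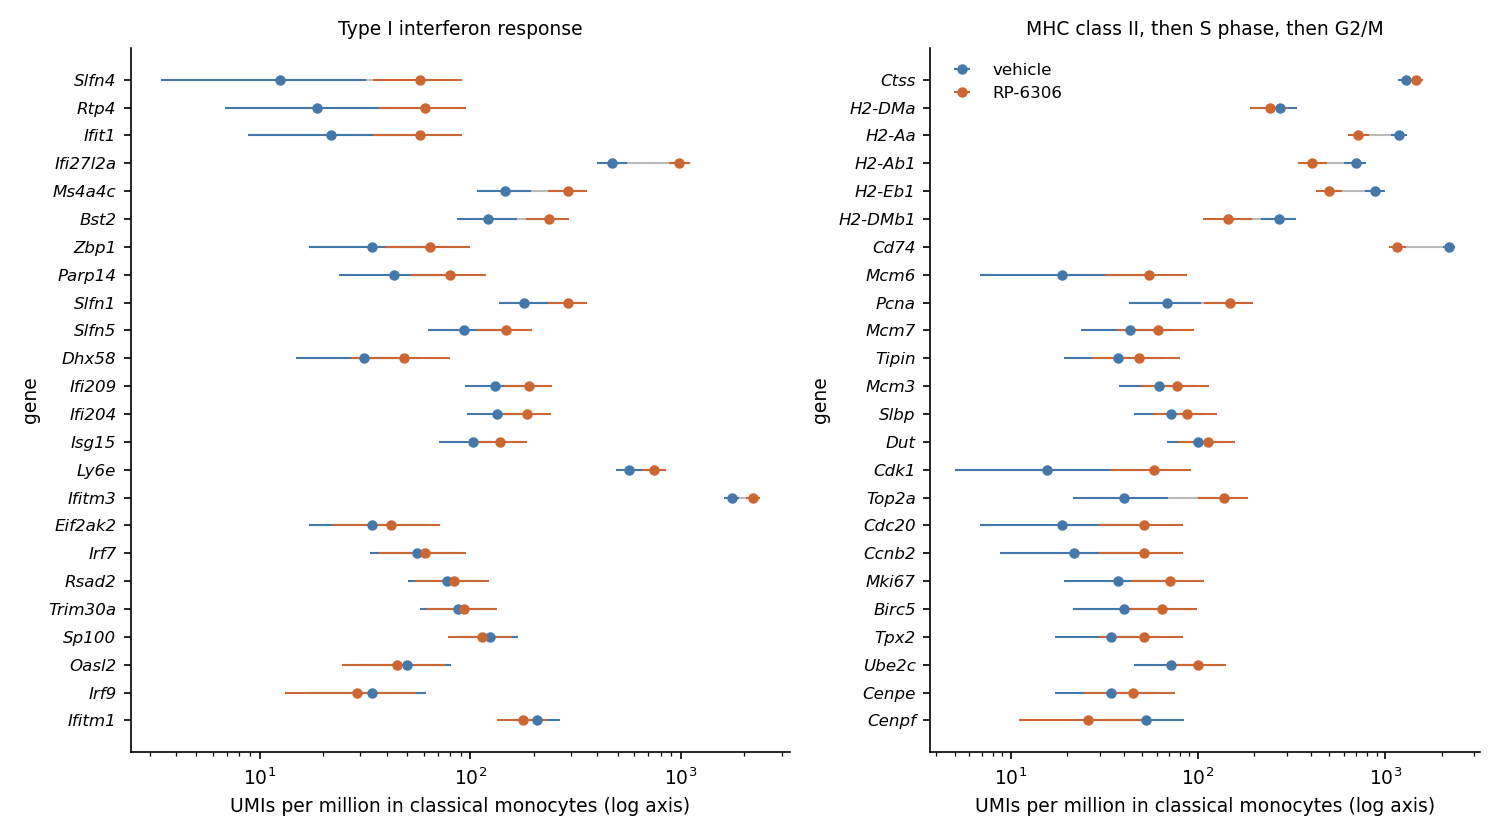
CPM of measured members of the type I interferon list (left, 1 member not plotted) and of the MHC class II, S phase and G2/M lists (right) in classical monocytes of the vehicle (blue) and RP-6306 (orange) libraries, on log axes with exact Poisson 95% intervals. Of the plotted interferon genes all but Ifitm1, Irf9, Oasl2 and Sp100 lay higher in the RP-6306 library, and of the MHC class II genes 6 of 7 lay lower.

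Antigen presentation differed by class. MHC class I genes summed to a ratio of 1.25 (1.16 to 1.35) in monocytes and 1.25 (1.21 to 1.30) in macrophages. B2m, the light chain, was at 986 and 1344 CPM, the heavy chain H2-K1 at 1266 and 1576, and H2-D1 at 759 and 878 (0.970 to 1.38). The peptide transporter Tap1 was at 31.1 and 80.4 CPM (10 and 25 UMIs, 1.20 to 6.03). H2-K1 and H2-D1 have close paralogs, so the split of their counts is uncertain.

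MHC class II genes were lower in the RP-6306 monocytes and higher in the RP-6306 macrophages. In monocytes 6 of 7 measured genes were lower, with a median log2 ratio of -0.76, and the list summed to 6842 and 4656 CPM, a ratio of 0.681 (0.636 to 0.728). In macrophages the ratio was 1.17 (1.14 to 1.19). Cd74, the invariant chain, was at 2186 and 1161 CPM in monocytes and at 3385 and 4027 in macrophages. H2-Ab1 was at 694 and 408 CPM in monocytes (0.470 to 0.735) and at 1148 and 1439 in macrophages. H2-Aa was at 1188 and 720 CPM, H2-Eb1 at 883 and 502, and H2-DMb1, a peptide-loading chain, at 271 and 145. Ctss, the protease that trims the invariant chain, was the 1 higher gene, at 1297 and 1453 CPM (0.979 to 1.28). None of the 7 genes passed 2-fold, and the difference between the classes was not tested.

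The class II UMIs sat in few members. For H2-Aa, H2-Ab1, H2-Eb1 and Cd74 together, the 10 highest cells held 60.2% of the UMIs in the vehicle library and 72.8% in the RP-6306 library, while 38 of 94 and 59 of 102 members had none. At equal depth, 13 of 84 members (15.5%) and 9 of 83 (10.8%) had 20 or more. This range of a score is no cell type, and the intervals of the shares overlapped, the first starting at 8.51% and the second ending at 19.6%. In the vehicle library its 13 cells carried 34 of the 67 Mmp12 UMIs seen among members of sufficient depth, 24 Plac8 UMIs at 427 CPM, and 0 Ly6c2 UMIs. In the RP-6306 library its 9 cells carried 6 of 15 Mmp12 UMIs, Plac8 at 1181 CPM and 2 Ly6c2 UMIs. The members under 5 class II UMIs carried Plac8 at 1935 and 2706 CPM and Ly6c2 at 168 and 313 CPM. Markers of dendritic cells were lower alongside class II (33 and 16 UMIs, Batf3 at 17 and 6), while Flt3, Cd209a and Ccr7 were at 0 in both libraries. The part of such cells in the class II difference was not tested. The ratio stayed below 1 in each alternative that was tried, between 0.647 without the highest cell of each library and 0.787 with at least 4 UMIs of monocyte genes.

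**Figure D4:**
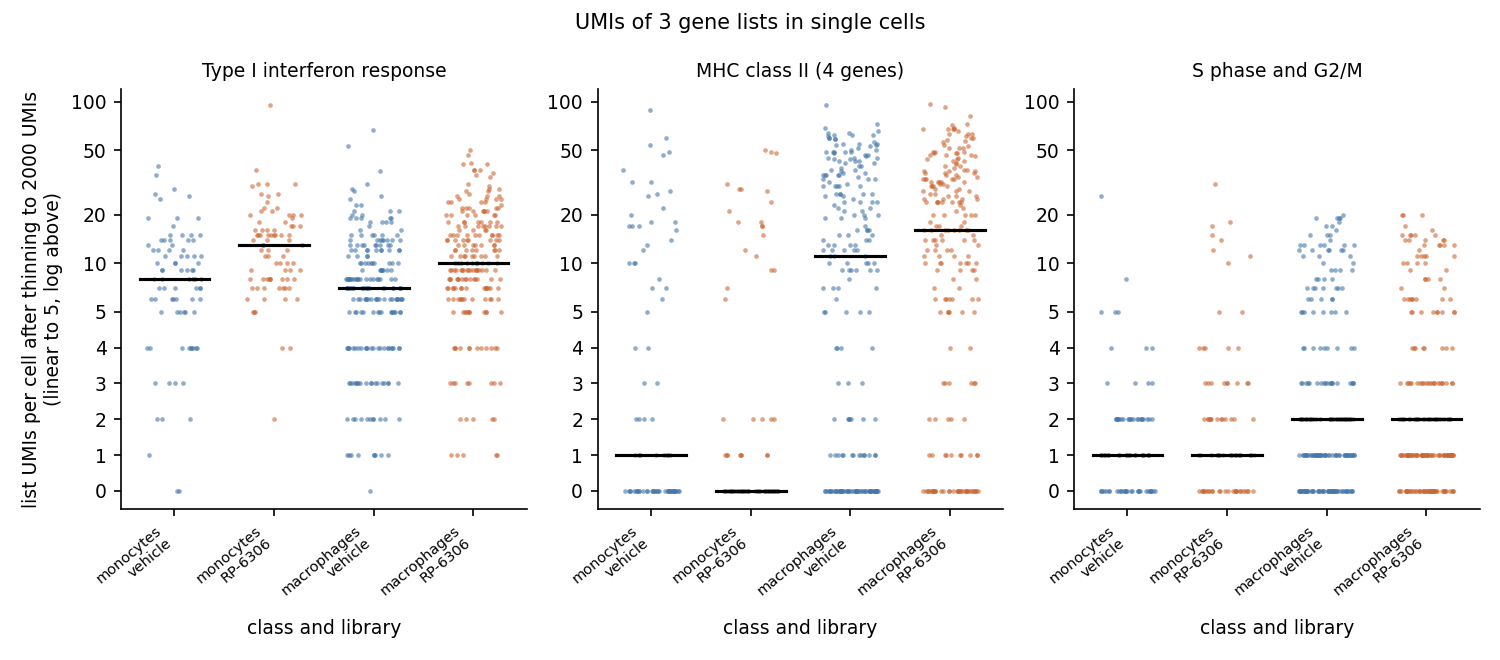
UMIs per cell of the type I interferon list, of 4 MHC class II genes and of the cell cycle lists after thinning each cell to 2000 UMIs (linear to 5, log above), for monocytes (84 and 83 cells) and macrophages (223 and 221 cells) of the vehicle (blue) and RP-6306 (orange) libraries. Black lines are medians: 8 and 13 interferon UMIs in monocytes, with most members low and a few high for class II and cell cycle genes.

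Cell cycle genes were higher in the RP-6306 monocytes and lower in the RP-6306 macrophages. S phase genes summed to 544 and 913 CPM in monocytes, a ratio of 1.68 (1.38 to 2.04), and G2/M genes to 476 and 900 CPM, a ratio of 1.89 (1.55 to 2.32). In macrophages the ratios were 0.919 (0.854 to 0.989) and 0.905 (0.844 to 0.971). In monocytes 7 of 7 measured S phase genes and 9 of 10 G2/M genes were higher. Pcna, which clamps polymerase to DNA, was at 68.4 and 148 CPM, Mcm6, of the replicative helicase, at 18.7 and 54.7, and Dut at 99.5 and 113. Mki67 was at 37.3 and 70.7 CPM (0.898 to 4.20), Cdc20 at 18.7 and 51.4 and Ube2c at 71.5 and 99.7 (0.787 to 2.50). Cdk1, the kinase that PKMYT1 restrains, was at 15.5 and 57.9 CPM (5 and 18 UMIs, 1.33 to 12.8). Pkmyt1 itself gave 0 UMIs and 1 UMI, below what these depths can measure.

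A small number of cells held a large part of these counts, above all in the RP-6306 library. Members with 10 or more cell cycle UMIs were 4 of 94 (4.26%, 1.17 to 10.5) and 11 of 102 (10.8%, 5.51 to 18.5), a difference of 6.53 points with an interval from -1.68 to 14.8, which includes 0. At equal depth they were 1 of 84 (1.19%) and 8 of 83 (9.64%), a difference of 8.45 points whose interval starts at 0.917 and does not. At full depth the 4 and 11 cells held 154 of 328 and 413 of 564 cell cycle UMIs. In the vehicle library the other 90 members held 174. The 11 cells carried 107 Plac8 UMIs at 1646 CPM, 10 Ly6c2 UMIs, 3 Krt8 UMIs and 2 Krt18 UMIs, and their median depth was 5582 UMIs against 2377 in the other members of that library. Without the 4 and 11 cells the ratio was 1.04 (0.796 to 1.36) for S phase and 0.973 (0.634 to 1.49) for G2/M. That cut used the same genes and took more cells from the RP-6306 library, so a lower ratio was built in. Without the highest cell of each library the G2/M ratio was 3.15 (2.40 to 4.17), and the highest vehicle cell held 84 of that library's 328 cell cycle UMIs. Among members with no keratin UMI the ratios were 1.31 (1.02 to 1.68) and 1.52 (1.21 to 1.92). With the highest 8% of doublet scores removed they were 1.69 and 2.01, and with each cell thinned to 2000 UMIs 1.56 and 1.90, with intervals that start at 1.17 and 1.37.

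Genes that mark classical monocytes stood higher in the RP-6306 monocytes, led by Plac8 and Hp. Plac8 was at 1561 and 2511 CPM (1.44 to 1.80). Of 20 further classical monocyte genes, Plac8 included, 16 were higher and 4 lower, with a median log2 ratio of 0.35, and 2, Hp and Clec4d, passed 2-fold, Clec4d not at equal depth (log2 ratio 0.66). They summed to 18339 and 20704 CPM, a ratio of 1.13 (1.09 to 1.17), against 0.920 (0.895 to 0.945) in macrophages. In macrophages 7 of 19 measured genes of the list were higher and 12 lower. Plac8 was among the higher there, at 157 and 298 CPM, a ratio of 1.90 (1.60 to 2.25). In monocytes Hp was at 134 and 350 CPM (1.83 to 3.82), and Thbs1, a matrix glycoprotein, at 2224 and 2987 (1.22 to 1.48). S100a6, the most abundant of the list, was at 6018 and 6032 CPM (0.940 to 1.07). Fn1, fibronectin, went the other way, at 2419 and 1939 CPM (0.719 to 0.892). Of the rule's own genes, given as a description, Ly6c2 was at 112 and 251 CPM, Chil3 at 1088 and 1357, Vcan at 731 and 871, Ccr2 at 566 and 524 and Lyz2 at 5330.3 and 5871. With Ly6c2 left out of the sum that chose the cells, it was at 112 and 246 CPM.

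Regulators of the lineage were close to equal. The 14 listed transcription factors summed to a ratio of 1.01 (0.966 to 1.06) with 5 of 12 measured members higher. Klf2 was at 3408 and 3614 CPM, Cebpb, of emergency myelopoiesis, at 1769.5 and 2151 (1.09 to 1.36), and Id2 at 591 and 437 (0.589 to 0.927). Recruitment and adhesion receptors summed to 1.03 (0.954 to 1.11): Cd44, the hyaluronan receptor, was at 861 and 961 CPM and Itgam, CD11b, at 731 and 572 (0.641 to 0.956). Both chains of the interferon receptor were rare, Ifnar1 at 59.1 and 35.4 CPM and Ifnar2 at 52.9 and 41.8, with intervals that included 1. Fc receptor and phagocytosis genes summed to 1.05 (0.987 to 1.11), with Fcer1g, the shared signalling chain, at 3197 and 3354 CPM and Fcgr4 at 87.1 and 164 (1.17 to 3.10). Phagocyte oxidase genes summed to 1.05 (0.956 to 1.15). Pattern recognition receptors summed to 1.07 (0.946 to 1.20), and Tlr2, the receptor of bacterial lipoproteins, passed 2-fold at 59.1 and 125 CPM (1.20 to 3.89).

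Inflammatory genes differed little as a group. Cytokines and NF-kB targets summed to 0.958 (0.907 to 1.01), and chemokines to 1.03 (0.976 to 1.09). Il1b, interleukin 1 beta, was at 3629 and 2958 CPM in monocytes (0.747 to 0.889) and at 1812 and 2208 in macrophages, a ratio of 1.22 in macrophages. Among cells with at least 4 UMIs of monocyte genes the log2 ratio of Il1b was -0.06, against -0.29 over all members. Ccl6 was at 2989 and 2733 CPM, Cxcl2, a chemokine that draws neutrophils, at 1900.1 and 1627 (0.760 to 0.965), and Ccl4 at 973 and 949. Ccl7, a CCR2 ligand, was at 21.8 and 86.8 CPM (7 and 27 UMIs) with 29.6% of the latter in 1 cell. Cxcl10, an interferon-induced chemokine, was at 187 and 334 CPM, with 42.3% of the RP-6306 UMIs in 1 cell, and at 156 and 290 CPM in tumour cells.

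Immune regulation genes summed to 2314 and 2608 CPM, a ratio of 1.13 (1.02 to 1.25) in monocytes and 0.846 (0.806 to 0.888) in macrophages. The monocyte interval included 1 without the highest cell of each library (1.05, 0.949 to 1.17) and with the highest doublet scores removed (1.10, 0.994 to 1.22). Spp1, osteopontin, was at 494 and 788 CPM in monocytes (1.30 to 1.96), with 27.8% of the RP-6306 UMIs in 1 cell, and at 1399 and 1067 in macrophages. Tumour cells held Spp1 at 1850.1 and 1807 CPM, above the monocytes. Havcr2, TIM-3, was at 49.8 and 96.5 CPM (1.02 to 3.81). Mmp19, a matrix protease, was at 308 and 206 CPM (0.480 to 0.925). Cd274, the checkpoint ligand PD-L1, was at 34.2 and 57.9 CPM (11 and 18 UMIs, 0.757 to 3.96), too few to tell apart. At equal depth Cd274 was seen in 3 of 84 and 10 of 83 monocytes and in 8 of 1000 tumour cells of each library, and its log2 ratio was 2.07 in place of 0.74.

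Metabolic and stress lists had ratios on the same side of 1 in both classes. Hypoxia and glycolysis genes had a ratio of 0.868 (0.821 to 0.918) in monocytes and 0.922 (0.896 to 0.948) in macrophages, with 15 of 19 lower in monocytes. Bnip3, a mitophagy receptor, passed 2-fold at 99.5 and 45.0 CPM, P4ha1, a collagen prolyl hydroxylase, was at 187 and 109, and Hk2, a hexokinase, was higher, at 90.2 and 170 (1.18 to 3.08). Chaperones of the endoplasmic reticulum had ratios of 1.26 (1.18 to 1.34) and 1.34 (1.30 to 1.38): Hspa5, BiP, was at 942 and 1219 CPM, Hsp90b1 at 743 and 1129, and Sdf2l1 at 190 and 360. Lysosome and lipid genes had ratios of 1.16 (1.11 to 1.22) and 1.09 (1.07 to 1.10): Ctsl was at 442 and 736 CPM, Ctsb at 653 and 1003, Plin2, which coats lipid droplets, at 336 and 646, and Psap, the most abundant, at 3247 and 3087. Iron genes had ratios of 1.05 (1.01 to 1.10) and 1.11 (1.09 to 1.13), with the ferritin chain Fth1 at 8586 and 8881 CPM. Immediate-early and heat shock genes, which tissue dissociation induces, had ratios of 0.912 (0.884 to 0.941) and 0.900 (0.884 to 0.916). In monocytes 13 of 16 were lower. Of the 3 higher, Hsph1 passed 2-fold, at 59.1 and 193 CPM. The part of this list in the other differences was not tested. Fos was at 5433 and 5376 CPM and Atf3 at 1972 and 1457.

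The small lists of interferon gamma and of nucleic acid sensing had ratios of 1.53 (1.23 to 1.90) and 1.40 (1.10 to 1.79) in monocytes. In macrophages they were 1.31 (1.21 to 1.43) and 1.29 (1.15 to 1.46). The interferon gamma list held 146 and 216 UMIs in monocytes, of which Cxcl10 gave 60 and 104. Of those Cxcl10 UMIs, 42.3% in the RP-6306 library came from 1 cell, and the ratio without it was not tested. Cgas, the sensor of DNA in the cytosol, was at 12.4 and 57.9 CPM (4 and 18 UMIs, 1.53 to 18.9) and was seen in 3 and 15 members. Zbp1, a sensor of Z-form nucleic acid, was at 34.2 and 64.3 CPM (0.859 to 4.34). The tissue macrophage genes summed to 4363 and 5023 CPM, a ratio of 1.15 (1.07 to 1.24) in monocytes and 1.11 (1.09 to 1.13) in macrophages, with 9 of 16 measured members higher in monocytes. Ctsb and Ctsl, which are also in the lysosome list, led that sum, while Axl, a receptor for dying cells, was at 65.3 and 25.7 CPM (0.151 to 0.926).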

How the data were processed

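The deposited matrices hold raw counts, whole numbers of UMIs for each gene in each barcode. Cell Ranger 7.1.0 wrote them, per the file headers; version 2.1.1 and build mm10 stand in the submitters' processing notes, and this difference was not resolved. The 3' kit is from the labels. Of 55357 features, 52081 identifiers matched GENCODE M21.

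Within a library, the counts of a class were added up and scaled to CPM, computed here with numpy 2.4.6, scipy 1.17.1 and pandas 2.3.3. Intervals are exact Poisson (levels), Clopper-Pearson (shares), exact conditional (ratios) and square-and-add (differences of shares), at 95%. Shares at equal depth used cells thinned to 2000 UMIs. No test was run, since cells are not replicates. Scrublet in scanpy 1.11.5 called 0 and 1 doublets by its own threshold, which had not worked, so doublets were kept and the highest 8% of scores (684 and 808 cells, 4 and 2 of them members) were removed as an alternative. TMM factors are from edgeR 4.0.16. The calculation was tested on simulated data.

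Named genes are the 10 most different past 2-fold in each direction between libraries, the 12 most different in each direction against macrophages (no rule genes), the 3 most abundant and 3 most different of a list at 50 CPM or more, and a fixed set. Among the genes past 2-fold, mitochondrial, ribosomal, haemoglobin and unnamed genes were not named. Nor were those with over 25% of their UMIs in 1 cell or under 0.2 of their level in tumour cells. Genes of the lists and of the fixed set did not have to meet these limits. Bst2, Rsad2 and the lower interferon genes were also named after their values were seen, as were others of a list where its text needed them. Some genes that this rule names are not reported here. The members and the lists were chosen with earlier results of these data known. A listed gene counted as measured with 20 UMIs over both libraries, while sums hold every listed gene outside the rule. Counts of close paralogs (Ifit, Slfn, Ifitm, Ly6c and MHC class I genes) are uncertain.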

Additional observations from a re-analysis of the deposited data

Results flagged for a closer look

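Several lists gave ratios of RP-6306 over vehicle on opposite sides of 1 in monocytes and macrophages, each with a counting interval that excluded 1. Such intervals leave out the spread between cells. Among monocytes, the 10 highest cells held 60.2% and 72.8% of the UMIs of 4 class II genes. For cell cycle UMIs the shares were 59.5% and 71.1%. The difference between the classes was not tested, and each class came from the same 2 libraries. MHC class II stood at 0.681 in monocytes and 1.17 in macrophages, S phase at 1.68 and 0.919, and G2/M at 1.89 and 0.905. The 8 genes of the CDK1 switch, summing to 22 and 41 UMIs in monocytes, stood at 1.93 and 0.834. Only 1 of these 8 genes was measured in monocytes, Cdk1, which is also in the G2/M list. Classical monocyte genes stood at 1.13 and 0.920, although Plac8 of that list was higher in both classes. Immune regulation genes stood at 1.13 and 0.846, and dendritic cell markers, at 33 and 16 UMIs, at 0.501 and 1.34. For immune regulation the monocyte interval included 1 without the highest cell of each library (0.949 to 1.17) and with the highest doublet scores removed (0.994 to 1.22).

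The same held for single genes. H2-Ab1 stood at 0.589 in monocytes and 1.25 in macrophages, and Il1b at 0.815 and 1.22. Stmn1 stood at 3.14 and 0.843, and Rnf187 at 2.76 and 0.686. Lyz2 stood at 1.10 and 0.934, but it took part in choosing both classes, so nothing is read from its ratios. Its monocyte ratio turned below 1 under 2 alternatives.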

How the results depend on the processing

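The difference in share stayed within its interval under the 8 alternatives for choosing the cells, between -0.0567 and 0.193 points. The interferon ratio was between 1.39 and 1.53 under those and under other scalings, depths and left-out cells, and 1.74 over genes scarce in tumour cells; the list's median log2 ratio was 0.39 with at least 4 UMIs of monocyte genes, 0.64 with at most 1 UMI of S100a8 and S100a9, and 0.66 for members at 50 CPM or more. The MHC class II ratio moved to 0.769 without C1q UMIs, 0.787 with at least 4 UMIs of monocyte genes, 0.729 with at least 5 Lyz2 UMIs, 0.734 at equal depth and 0.773 without cells of 10 or more cell cycle UMIs. Without those cells the S phase ratio was 1.04 and the G2/M ratio turned to 0.973, but leaving cells out by these same genes builds in a fall. Without keratin UMIs the S phase and G2/M ratios were 1.31 and 1.52. Without the highest cell of each library G2/M was 3.15. Genes past 2-fold numbered 142 higher and 136 lower at 20 UMIs with no CPM limit, of 4325 genes, and 7 and 1 of 1021 at 100 UMIs; the cause was not tested, and the counts differ as shares too; with doublets removed they were 35 and 25, of which 28 and 17 were shared with the 33 and 24. Against macrophages the counts stayed between 70 and 91 above and between 92 and 110 below. At equal depth Clec4d (0.66), Hmgb2 (0.98), Olfm1 (-0.73) and Hmgcs1 (-0.61) were no longer past 2-fold, and Isg15 (1.32), Cxcl10 (1.43), Cd274 (2.07), Stmn1 (2.35) and Matk (-4.02) moved further from 0 on the log2 scale. The log2 ratio of Lyz2 turned from 0.14 to -0.01 without keratin UMIs and with at least 4 UMIs of monocyte genes. The alternatives for class II, cell cycle, classical and immune regulation genes were chosen after seeing the data. No paired analysis was possible because each arm is 1 library. With 1 library per arm, no value here measures the spread between mice, and 321555 and 311000 UMIs leave ratios of genes under 20 UMIs per library open to 2-fold counting error.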
